A study of Arabidopsis thaliana with 15 samples.

Results

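Gene expression after 1 h of dehydration was compared with that of untreated Arabidopsis thaliana seedlings, gene by gene. The table of read counts lists 22526 genes, of which the 18876 with a mean of at least 1 CPM over the 5 columns of the study were compared. CPM are read counts relative to the scaled total of a column, and a gene is called measured here when it reached that mean. A ratio could be computed for 18873 of the measured genes.

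All seedlings were of the Columbia (Col-0) ecotype, which served as wild type, and the labels name no transgene or mutation. They grew on solid MS medium with 1% sucrose at 22 °C under 16 h of light and 8 h of dark, in light of 40 µmol m-2 s-1, spent a further day in liquid MS medium from day 13, and were 14 days old when treated. For dehydration they were lifted out of the liquid and lay on filter paper in the light for 1 h or 3 h. The ABA groups, used below only for values side by side, stayed in the liquid with 20 µM abscisic acid (ABA) for 1 h or 3 h, and the control was harvested before any treatment. The control thus differs from the dehydrated seedlings in water loss, in handling, in the loss of the liquid medium and in the hour of harvest, and these cannot be told apart. Each of the 5 conditions had 3 replicate libraries, but the counts are given as 1 combined column per condition, so the spread between replicates is unknown and nothing was tested. Genes are described by the size of the ratio, and each 95% interval covers counting error only. Unless another limit is given, a gene counted as higher or lower differed by at least 2-fold from the control. Sequencing pool and condition cannot be told apart either, since the 3 libraries of a condition shared a pool.

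As background, plants that lose water respond along several routes. One runs through the hormone ABA, whose core kinases activate ABF factors that bind the ABRE element of promoters. Another runs through DREB and CBF factors, which bind the DRE/CRT element in front of genes for protective hydrophilic proteins and compatible solutes, and which can act without ABA. Wounding, touch and detachment from the medium also raise calcium and jasmonate signals, while growth driven by auxin, brassinosteroid and gibberellin is commonly held back.

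At least 2-fold higher after 1 h were 1458 of the 18873 genes (7.73%), and lower were 1060 (5.62%). The middle of the distribution was narrow: 9027 genes (47.8%) lay within 1.25-fold of the control, and the quartiles of the log2 ratio were -0.33 and 0.36. The tails were longer on the higher side, with 396 genes at least 4-fold higher (2.1%) against 228 at least 4-fold lower (1.21%), and 39 against 8 genes at least 32-fold apart. Genes that were higher started from a low level. Their median was 4.32 CPM in the control and 14.7 CPM after 1 h, while the median over all measured genes was 19.1 CPM in the control. Genes that were lower went from a median of 19.3 CPM to 6.43 CPM. The higher genes together held 2.15% of all CPM in the control and 7.0% after 1 h, and the lower genes held 5.96% and 2.24%. Just 19 genes went from under 1 CPM to at least 10 CPM, and 10 went the other way. Of the higher genes 305 were under 1 CPM in the control, and of the lower genes 116 were under 1 CPM after 1 h. These reached the mean of 1 CPM only through other columns, which favours a call, and 28 of the 62 gene lists described here hold at least 1 such higher gene. The counts and medians of lists are therefore descriptions of the measured members. Each list count is to be read beside the shares over all measured genes, 7.73% higher and 5.62% lower.

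**Figure D1:**
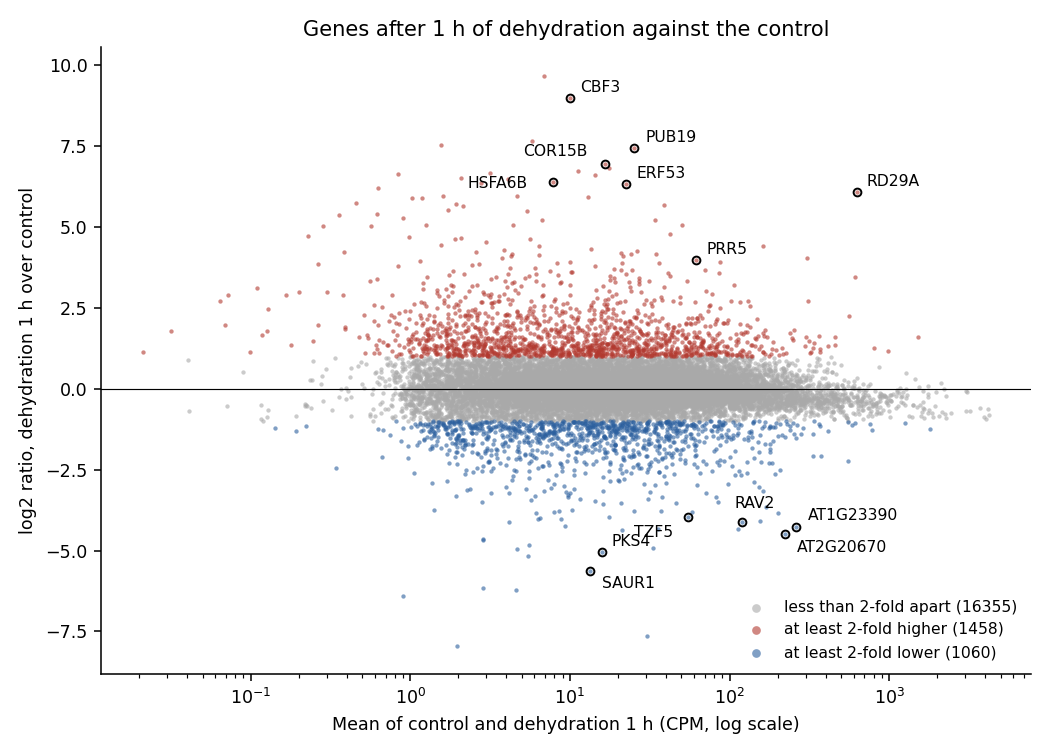
Each point is a measured gene, with its mean CPM over the control and dehydration 1 h columns on the x axis (log scale) and the log2 ratio of dehydration 1 h over control on the y axis. The 1458 red points are higher and the 1060 blue points lower, and the highest ratios sit mostly at low to moderate levels, with RD29A as an abundant exception.

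The CBF and DDF factors of the DREB1 family are known to bind the DRE/CRT element. Matches to ACCGAC or GCCGAC on either strand were found in the 500 bases upstream of 9 of the 13 listed target genes, 14 matches in all. The stretches shown here belong to the 4 target genes with the highest ratios. They are from the TAIR10.1 assembly of RefSeq, each written 5′ to 3′ on the strand of its gene, with the match in capitals. Each position is the distance of the match from the annotated start. GTCGGT and GTCGGC are the same elements read on the opposite strand.
RD29A, 141 bases before the start, chr5:21240567-21240590, plus strand: tagacatggACCGACtactaataa
RD29A, 91 bases before the start, chr5:21240617-21240640, plus strand: aaatatcatACCGACatcagtttg
RD29A, 34 bases before the start, chr5:21240674-21240697, plus strand: agatatactACCGACatgagttcc
COR15A, 142 bases before the start, chr2:17712458-17712481, minus strand: tgcaaccttGTCGGTttattttgt
COR15A, 80 bases before the start, chr2:17712396-17712419, minus strand: aacttgttgGCCGACatacatttg
COR15B, 265 bases before the start, chr2:17710684-17710707, minus strand: catctagaaGTCGGTatgccacac
GolS3, 216 bases before the start, chr1:3019414-3019437, plus strand: aaatagtagGTCGGCcatgggtcg

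CBF3 (AT4G25480), an activator best known from cold acclimation, was at 0.0396 CPM in the control, 9.92 after ABA for 1 h, 6.33 after ABA for 3 h, 20.0 after dehydration for 1 h and 27.2 after dehydration for 3 h. Its log2 ratio for dehydration 1 h over control was 8.98 (95% counting interval 7.94 to 10.3), from 7 reads in the control and 3787 after 1 h. CBF1 (AT4G25490) stood at 0.0565, 3.25, 1.46, 11.4 and 16.3 CPM in the same order of columns. Both had few reads in the control and were far higher in every treated column. CBF2 (AT4G25470) had more control reads and stood at 1.3, 12.1, 3.66, 25.6 and 21.9 CPM, a log2 ratio of 4.30 (4.11 to 4.5). DDF1 (AT1G12610), a relative known for lowering gibberellin when overexpressed, stood at 0.0622, 0.0721, 0.00516, 6.29 and 3.56 CPM, so it had few reads in the control and in both ABA columns. DDF2 (AT1G63030) had 0 control reads and 592 reads after 1 h, which is at least 184-fold higher against a floor of 3 reads. All 6 CBF and DDF genes listed were higher, against 7.73% of all measured genes, with a median log2 ratio of 7.09. CBF1, CBF3, CBF4, DDF1 and DDF2 reached the mean of 1 CPM only through treated columns, so a low control favoured their selection and neither the count nor the median supports anything.

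Of the 13 CBF target genes 11 were higher and 0 were lower, with a median of 3.33 beside -0.01 over all genes. All 13 listed targets were measured, but COR15B and GolS3 only through treated columns, so the count and median are no support. RD29A (AT5G52310), which encodes a hydrophilic stress protein, was at 18.2 CPM in the control, 1631 after ABA for 1 h, 1239 after dehydration for 1 h and 5151 after dehydration for 3 h. Its count after ABA for 3 h was treated as missing. COR15A (AT2G42540), a chloroplast protein that stabilises membranes, stood at 1.497, 48.2, 635, 76.2 and 961 CPM, in the order control, then the ABA columns at 1 h and 3 h, then those of dehydration. For both genes every treated column with a value was far above the control. The 3 h dehydration column was the highest for COR15A. For RD29A that column was the highest of those with a count, and ABA for 3 h could not be ranked in CPM. COR15B (AT2G42530), its neighbour and close paralog, stood at 0.266, 10.08, 82.1, 33.1 and 443 CPM, a log2 ratio of 6.96 (6.55 to 7.41). GolS3 (AT1G09350), a galactinol synthase of the raffinose pathway, stood at 0.209, 5.70, 1.01, 22.4 and 77.7 CPM, so that ABA for 3 h left it far below both dehydration columns. Over the 13 targets the median log2 ratio of dehydration 1 h over ABA 1 h, a comparison that leaves out the control, was 0.02. It was 1.45 for the CBF and DDF factors. DDF1 and DDF2, at 6.45 and 6.22, were measured only through the dehydration columns, so this median is no support either. CBF1, CBF2, CBF3 and CBF4 were at 1.815, 1.085, 1.01 and -0.995. For the step from dehydration 1 h to 3 h the median was 0.11 for the factors and 1.92 for the targets.

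CAMTA factors bind CGCGTT or CGCGTG and are known activators of CBF2 in the cold. CAMTA3 (AT2G22300) stood at 50.1, 36.5, 42.7, 105 and 61.5 CPM in the order given above, so dehydration for 1 h was the highest column. The other 5 CAMTA genes measured and ICE1, a further CBF activator, were less than 2-fold apart. MYB15 (AT3G23250), a repressor of CBF genes in the cold, stood at 5.76, 6.80, 3.81, 25.7 and 27.5 CPM, a log2 ratio of 2.16 (2.06 to 2.26). Matches to the CAMTA element upstream of CBF2 and DDF2 are shown because these matches lie closest to a start among the CBF and DDF genes. CBF4 has a further match 434 bases before its start.
CBF2, 74 bases before the start, chr4:13016295-13016318, minus strand, TAIR10.1: cagaaactcCGCGTTcgaccccac
DDF2, 68 bases before the start, chr1:23368470-23368493, minus strand, TAIR10.1: tgtattacgCGCGTTcgattcgtt

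**Figure D2:**
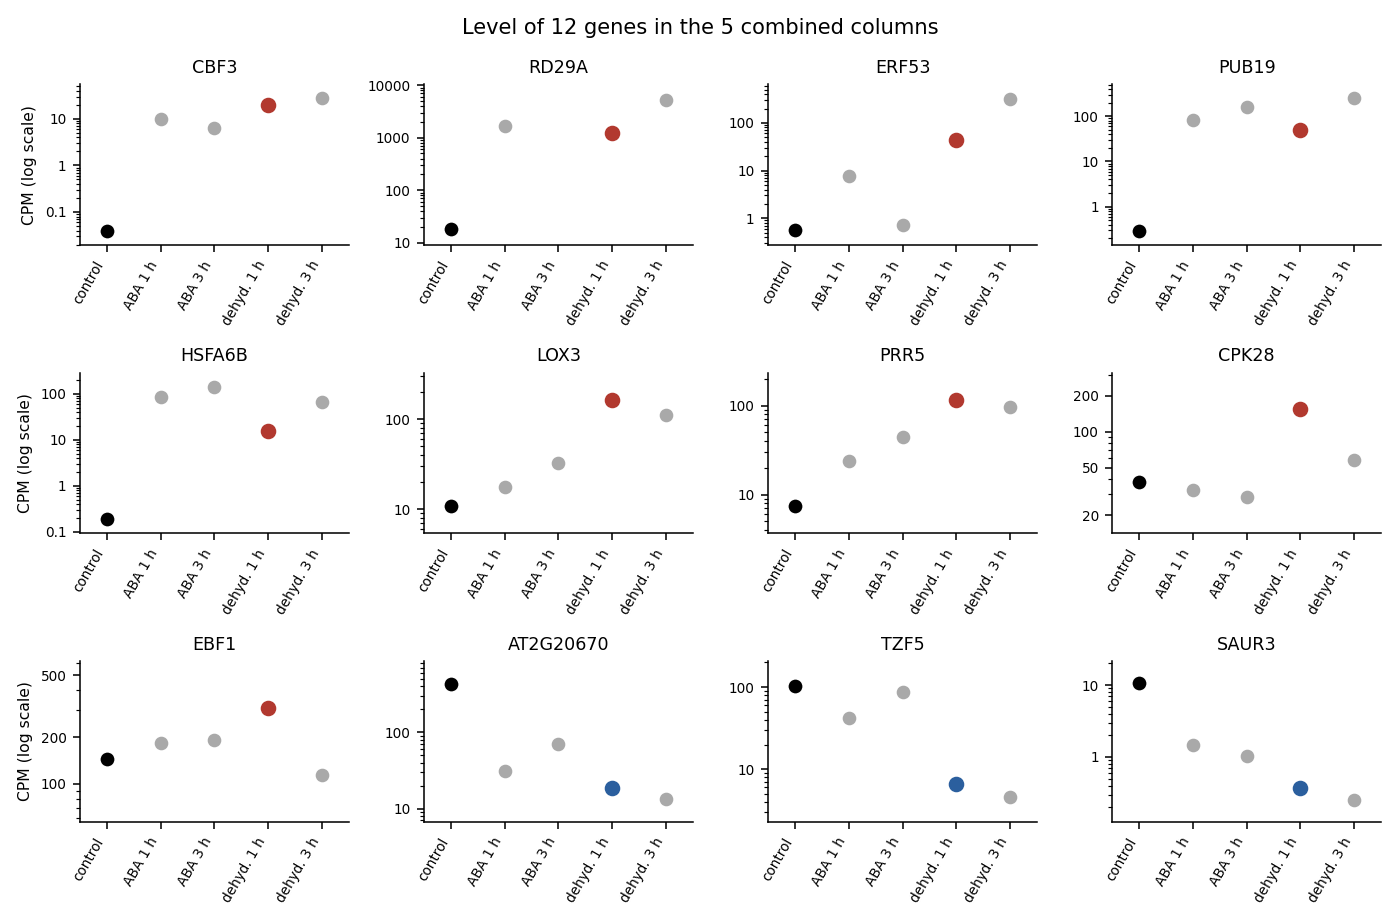
CPM (log scale) of 12 genes in the 5 combined columns, with the control in black, dehydration 1 h in red where higher and blue where lower than the control, and the other columns in grey. Each point is 1 column, so no error bar can be drawn; CBF3, LOX3, PRR5 and CPK28 are higher after 1 h of dehydration than after either ABA treatment, while PUB19 and HSFA6B are higher after ABA.

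Other AP2/ERF genes were spread to both sides. ERF53 (AT2G20880), a DREB-type factor of drought, stood at 0.554, 7.61, 0.712, 44.6 and 320 CPM, and AT4G28140, described with an integrase-type DNA-binding domain, stood at 0.294, 1.99, 1.61, 28.5 and 500.8 CPM. Another gene with the same description, AT1G64380, stood at 1.79, 20.1, 24.4, 66.8 and 170 CPM. ERF53 was close to its control level after ABA for 3 h, and all 3 genes were highest after dehydration for 3 h. Among the 17 measured ERF factors listed for wound and ethylene responses, 5 were higher and 6 lower, with a median of 0.01. ERF53 is also in this list and is counted among the higher genes. It was under 1 CPM in the control and measured only through treated columns. ORA59 (AT1G06160), an integrator of jasmonate and ethylene signals in defence, stood at 11.9, 1.72, 2.301, 0.728 and 0.903 CPM and was thus lower in every treated column. ERF-1 (AT4G17500) and ERF104 (AT5G61600) were 4.37-fold and 3.46-fold lower. Across the genes whose deposited description names the AP2/ERF (integrase-type) DNA-binding domain, 19 of 52 were higher and 10 were lower.

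Further families of stress transcription factors were also split. Of 13 stress NAC factors 5 were higher and 3 lower, with a median of 0.44. NAC019 (AT1G52890), an ABA-responsive member, stood at 4.53, 171, 243, 34.4 and 165 CPM. ORE1 (AT5G39610), a regulator of leaf senescence, stood at 60.5, 40.1, 85.1, 7.76 and 24.6 CPM, a log2 ratio of -2.96 (-3.04 to -2.88). In the R2R3 MYB list 7 of 13 were higher, 3 of them from under 1 CPM in the control, among them MYB74 (AT4G05100) at 9.62-fold and MYB102 (AT4G21440) at 8.38-fold, and 3 were lower, including MYB70 and MYB77 at 3.43-fold and 3.37-fold. Both zinc finger lists had more lower than higher members. ZAT5 (AT2G28200) stood at 31.1, 6.66, 14.3, 4.35 and 5.32 CPM, and 4 of 11 ZAT and AZF genes were lower while ZAT11 and ZAT18, both under 1 CPM in the control, were higher. The median of that list was nevertheless 0.64. Of 9 tandem CCCH genes 3 were lower and 1 was higher. Among the lower ones SOM (AT1G03790) was at 0.305 CPM in the control and 0.137 CPM after 1 h. It was measured only through the ABA columns. TZF5 (AT5G44260), a tandem CCCH protein known from seed germination and RNA turnover, stood at 104, 41.9, 88.6, 6.59 and 4.61 CPM. Both dehydration columns of TZF5 lay well below both ABA columns.

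WRKY factors, best known from defence, were more often higher: 13 of 53 measured, with 2 lower and a median of 0.46. WRKY30 (AT5G24110) stood at 0.418, 2.19, 0.955, 25.6 and 46.0 CPM, a log2 ratio of 5.94 (5.61 to 6.29). It was under 1 CPM in the control and reached the mean of 1 CPM only through treated columns, which favoured its selection. WRKY18 (AT4G31800) stood at 29.3, 11.1, 24.0, 112 and 330 CPM, and so lay below the control after ABA and above it after dehydration. WRKY70 (AT3G56400), a known switch between salicylate and jasmonate defence, was 4.29-fold lower. Of 18 heat shock factors 3 were higher and 4 were lower. HSFA6B (AT3G22830), known to respond to ABA, stood at 0.187, 86.7, 142, 15.5 and 67.6 CPM. HSFC1 (AT3G24520) stood at 4.89, 29.7, 36.7, 49.2 and 129 CPM, and was thus higher in all treated columns, as HSFA6B was. HSFA7A and HSFA2, which respond to heat, were 6.36-fold and 5.94-fold lower. Among the chaperones themselves 0 of 27 were higher and 11 were lower.

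**Figure D3:**
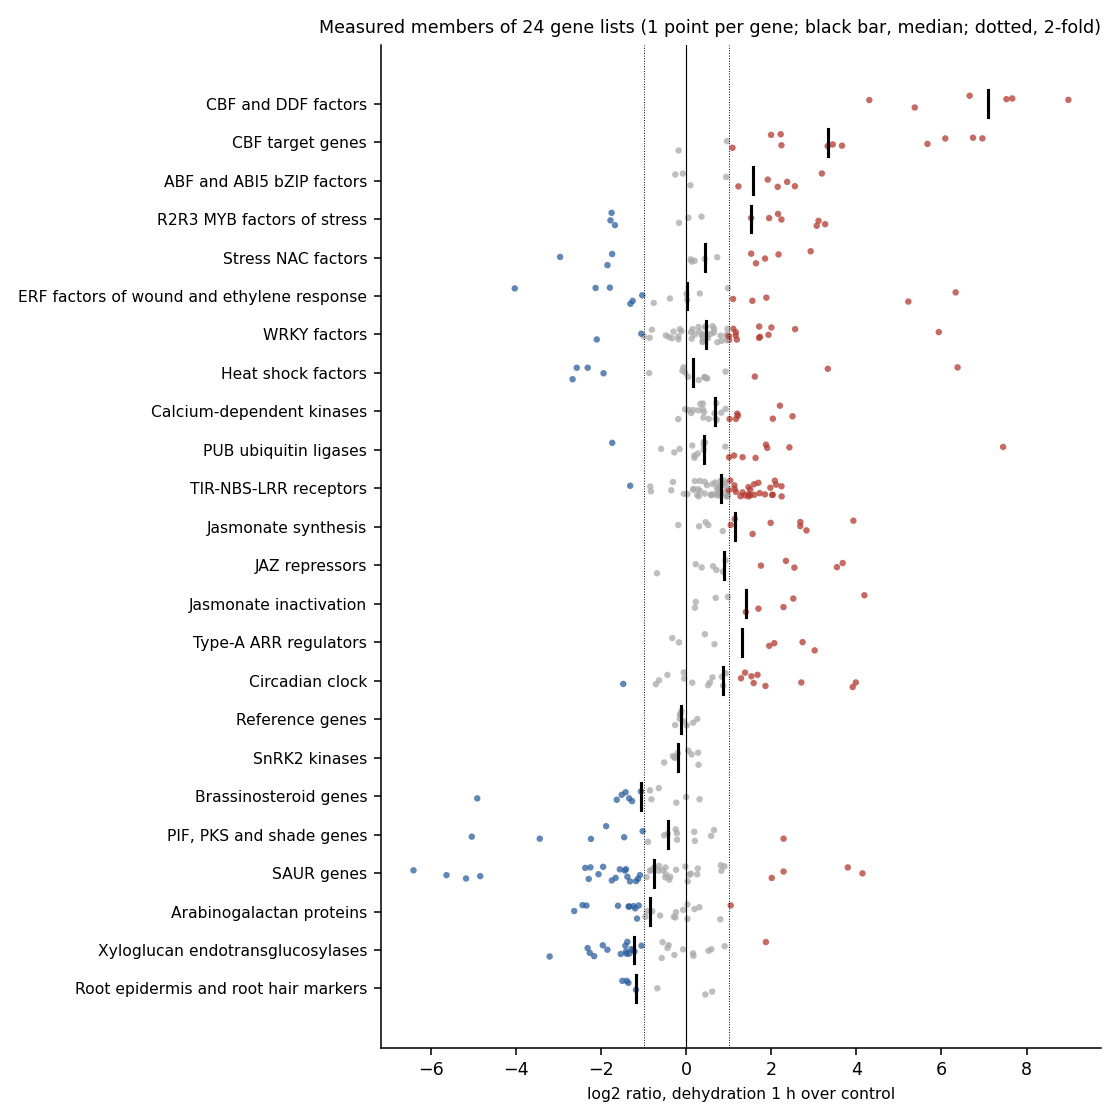
log2 ratio of dehydration 1 h over control (x axis) for the measured members of 24 gene lists, 1 point per gene, with red for higher, blue for lower, grey for smaller ratios and a black bar at each median. The CBF, jasmonate and cytokinin-response lists lie to the right, the cell wall, SAUR and brassinosteroid lists to the left, and the NAC, ERF and heat shock factor lists reach both sides.

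Of 10 measured genes of ABA synthesis and breakdown 4 were higher, on both sides of the pathway, and 0 were lower. The ABA-synthesis enzyme NCED3 (AT3G14440) stood at 2.58, 11.9, 22.8, 49.8 and 189 CPM, and AAO3 (AT2G27150), which makes ABA from its aldehyde, was 2.02-fold higher, just past the limit, which it misses with upper-quartile scaling. CYP707A1 (AT4G19230), an ABA-degrading hydroxylase, stood at 3.78, 51.4, 197, 24.2 and 28.0 CPM, so it was higher after ABA than after dehydration. Its paralog CYP707A4 was 3.27-fold higher. Less than 2-fold apart were CYP707A2 and CYP707A3 of the same family, with log2 ratios of -0.11 and 0.64, UGT71B6, which conjugates ABA, at 0.22, the hydrolase BG1 at 0.53, and the synthesis enzymes ABA1 and ABA2 at 0.07 and -0.75. Among the ABF and ABI5 factors and the AFP proteins, which bind ABI5, 6 of 10 were higher, with a median of 1.57. Of the higher genes ABI5 was under 1 CPM in the control and measured only through treated columns. ABI5 (AT2G36270) stood at 0.480, 6.50, 14.0, 4.38 and 13.4 CPM, and AFP3 (AT3G29575) at 4.93, 95.0, 204, 28.9 and 80.5 CPM. For both genes the 1 h value was higher with ABA than with dehydration. Over the 10 genes the median log2 ratio of dehydration 1 h over ABA 1 h was -0.73. Of the 9 SnRK2 kinases, which carry the ABA and osmotic signals by phosphorylation, 0 were at least 2-fold apart, and their extremes were -0.52 for SNRK2.3 and 0.29. PUB19 (AT1G60190), a ubiquitin ligase known as a negative regulator of ABA and drought responses, stood at 0.288, 81.6, 164, 50.3 and 252 CPM. RAB18 (AT5G66400), an ABA-responsive dehydrin, stood at 3.735, 18.3, 303, 2.65 and 34.1 CPM, so dehydration for 1 h was the only treated column below the control.

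Of 25 measured calcium-dependent kinases (CPKs), which calcium switches on directly, 7 were higher and 0 were lower, and the median was 0.67. CPK28 (AT5G66210), which limits the immune kinase BIK1, stood at 37.8, 32.4, 28.2, 155 and 58.4 CPM, so dehydration for 1 h stood apart from the other 4 columns. It overlaps another gene on the same strand, which makes its counts less certain. CPK29 (AT1G76040) and CPK15 (AT4G21940) were 4.61-fold and 5.65-fold higher. CML39 (AT1G76640), a calmodulin-like protein, stood at 0.147, 0.186, 0.268, 3.66 and 3.46 CPM. It was measured only through the dehydration columns, so its low control and ABA values favoured its selection. The other measured members of its list at least 2-fold apart were CML37 and CML38, 2.96-fold and 2.72-fold higher, and CML41, 2.78-fold lower. In the MAP kinase cascade 5 of 20 genes were higher, led by MAPKKK18 (AT1G05100), an ABA-responsive kinase, at 12.3-fold, and MKK9 (AT1G73500) was 3.28-fold lower.

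Many immune receptor genes were moderately higher. Of 67 measured genes described as TIR-NBS-LRR receptors, the intracellular sensors of pathogen effectors, 25 were higher and 1 was lower, with a median of 0.82. The highest of those measured, AT4G14370, stood at 3.53, 7.05, 8.53, 16.7 and 14.8 CPM. AT1G63860 stood at 12.9, 16.6, 11.6, 55.7 and 34.4 CPM, and AT5G46500 at 1.07, 1.51, 0.511, 5.04 and 4.54 CPM. In these 3 genes dehydration for 1 h was the highest column and dehydration for 3 h the next. The list median was 0.22 for ABA 1 h and 0.46 for dehydration 3 h against the same control column, and 0.74 for dehydration 1 h over ABA 1 h. Many of these genes lie in clusters of similar sequence, so reads could be shared between them. Of 28 cysteine-rich receptor-like kinases 10 were higher, among them CRK14 (AT4G23220) at 6.62-fold, and CRK25 and CRK30 were lower. Of 21 PUB ubiquitin ligases 8 were higher and 1, PUB26, was 3.33-fold lower. PEN3 (AT1G59870), an ABC transporter of defence compounds, had a high level throughout and stood at 760, 628, 465, 2290 and 1233 CPM.

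Jasmonate genes of synthesis, repression and inactivation were higher in part, with 0 lower in these 3 lists. Of 13 synthesis genes 8 were higher, with LOX3 (AT1G17420), which starts the pathway by oxygenating linolenic acid, at 10.8, 17.8, 32.8, 164.3 and 111 CPM. OPR3 (AT2G06050), which reduces OPDA, stood at 31.2, 44.8, 30.4, 200 and 145 CPM, so it was near its control level after ABA for 3 h. Of 12 JAZ repressors, which are themselves early targets of jasmonate, 5 were higher, led by JAZ5 (AT1G17380) at 12.8-fold. Of 9 genes that inactivate jasmonate 5 were higher. CYP94B3 (AT3G48520), which hydroxylates jasmonoyl-isoleucine, stood at 2.16, 15.3, 56.7, 39.4 and 46.6 CPM. The medians of dehydration 1 h over ABA 1 h were 1.18 for synthesis, 1.86 for the JAZ genes and 2.13 for inactivation.

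Some cytokinin-response genes were higher and ethylene genes were mixed. The type-A response regulators, which cytokinin induces and which then dampen its signal, had 4 of 8 measured members higher. One of them, ARR15 (AT1G74890), stood at 0.509, 0.486, 0.217, 4.13 and 2.57 CPM and was measured only through the dehydration columns, while ARR3 was not measured. ARR6 (AT5G62920) stood at 6.27, 6.14, 5.52, 26.3 and 19.1 CPM and ARR5 (AT3G48100) at 9.42, 7.08, 5.74, 36.5 and 37.5 CPM. In both, the ABA columns lay at or below the control and the dehydration columns above it. CKX4 (AT4G29740), a cytokinin-degrading oxidase, stood at 9.23, 7.33, 1.84, 42.5 and 37.6 CPM. For ethylene, ACS2 (AT1G01480), a synthesis enzyme, stood at 0.746, 3.73, 9.14, 5.67 and 20.1 CPM. The F-box pair that degrades EIN3 parted: EBF1 (AT2G25490) stood at 144, 182, 193, 309 and 114 CPM, and EBF2 (AT5G25350) at 281, 268, 284, 77.5 and 81.3 CPM. Of the receptors ERS2 (AT1G04310) and ETR2 (AT3G23150) were 4.32-fold and 2.75-fold lower.

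Of 7 measured genes of gibberellin metabolism 4 were higher and 2 were lower. GA2OX1 and GA20OX1, both counted as higher, were under 1 CPM in the control and measured only through treated columns, and without the filter 5 of the 10 listed genes were higher and 3 lower. GA2OX6 (AT1G02400), which inactivates gibberellin, stood at 6.45, 22.1, 30.6, 76.2 and 151 CPM, and GA2OX2 and GA2OX1 were 3.84-fold and 5.71-fold higher. GA3OX1 (AT1G15550), which makes the active form, was 2.41-fold lower, and GA20OX2 was 2.31-fold lower, but the synthesis gene GA20OX1 was 2.95-fold higher. Of 13 brassinosteroid genes 7 were lower and 0 were higher. The lower genes included BAS1 and IBH1, at 2.53-fold and 2.41-fold, while DWF4 had a log2 ratio of 0.315. BES1 (AT1G19350), a main transcription factor of the pathway, stood at 311, 286, 335, 116 and 123 CPM, close to the control after ABA and lower in both dehydration columns. BR6OX2 (AT3G30180), a late synthesis enzyme, was 3.10-fold lower. Among the phytochrome-interacting factors and their partners 6 of 17 were lower and 1 was higher. The lower genes included PAR1 (AT2G42870) at 10.8-fold and PIL5 (AT2G20180), a repressor of germination also known as PIF1, at 4.71-fold.

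Several families of cell expansion had more lower than higher members. Of 45 measured SAUR genes, small auxin-induced genes many of which promote elongation, 19 were lower and 4 were higher, with a median of -0.76. Of the lower ones 7 were under 1 CPM after 1 h, and of the higher ones 3 were under 1 CPM in the control. The name SAUR21 matched both AT5G01830 and AT5G18030, and AT5G01830 is perhaps not a SAUR gene. With a log2 ratio of 0.26, AT5G01830 was counted neither as higher nor as lower. SAUR3 (AT4G34790) stood at 10.7, 1.45, 1.04, 0.375 and 0.252 CPM and SAUR13 (AT4G38825) at 10.7, 0.522, 0.501, 0.295 and 0.291 CPM. All treated columns of these genes lay well below the control. Of 28 xyloglucan endotransglucosylases, which cut and rejoin wall polymers, 16 were lower and XTH20 was higher. XTH16 (AT3G23730) stood at 61.6, 45.8, 57.7, 13.8 and 8.06 CPM, and XTH6 (AT5G65730) at 119, 35.3, 59.8, 23.99 and 14.9 CPM. Of 24 arabinogalactan proteins, glycoproteins of the cell surface, 10 were lower and 1 was higher. AGP17 (AT2G23130) stood at 43.8, 46.5, 50.8, 8.64 and 20.9 CPM, and AGP7 (AT5G65390) at 45.6, 38.5, 43.2, 8.44 and 3.18 CPM. Both AGP genes were near the control after ABA. Over the list the median was -0.05 for ABA 1 h and -1.04 for dehydration 3 h against the same control, and -0.91 for dehydration 1 h over ABA 1 h. Expansins were mixed, with 5 of 17 lower and 3 higher, and EXPA8 (AT2G40610) stood at 68.9, 5.70, 3.43, 5.03 and 0.975 CPM.

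Markers of the root epidermis are given beside these wall genes. Of 7 such markers 4 were lower (EXPA18, EXPA7, COBL9 and PRP3) and 0 were higher. EXPA18 and EXPA7 are also in the expansin list. The summed level of the 7 was 76.4 CPM in the control, 86.3 and 81.1 after ABA for 1 h and 3 h, and 37.2 and 28.0 after dehydration for 1 h and 3 h. EXPA18 (AT1G62980), an expansin of root hairs, stood at 10.02, 10.13, 10.2, 3.54 and 5.06 CPM. No marker was at 0 reads, and the other 3 markers, LRX1, RSL4 and RHD6, had log2 ratios of -0.68, 0.45 and 0.61. Of 53 measured genes listed as class III peroxidases, of which DOX1 is perhaps not one, 12 were lower and 2 were higher. Of the higher genes AT4G31760 was under 1 CPM in the control and measured only through the dehydration columns. In whole seedlings fewer cells of a type and less RNA per cell cannot be told apart, and the part of root tissue in the lower wall genes was not tested. The 10 endodermis and stele markers, the 8 guard cell markers and the 4 mesophyll markers had 0 members at least 2-fold apart. Their summed levels were 281, 134 and 8881 CPM in the control and 261, 120 and 5630 CPM after 1 h. The 5 seed markers summed to 0.13 CPM in the control and 0.2 CPM after 1 h.

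Several clock genes were higher after 1 h. Of 22 clock genes 9 were higher and RVE1 was lower, with a median of 0.86. PRR5 (AT5G24470), a repressor that peaks in the afternoon in the plant's daily cycle, stood at 7.37, 23.7, 43.9, 117 and 97.2 CPM, and FKF1 (AT1G68050), a blue-light receptor of flowering time, at 1.254, 6.0, 27.0, 18.9 and 39.5 CPM. PRR9 (AT2G46790), which peaks earlier, stood at 11.7, 51.3, 11.7, 76.4 and 39.9 CPM. All 3 genes were also above the control after ABA for 1 h, and the 3 h value of PRR9 was lower than its 1 h value under both treatments. Because the control was harvested before treatment, the treated seedlings were also at a later hour of the day, and the hour and the treatment cannot be told apart in these columns. The list median was 0.70 for ABA 1 h against the same control and 0.33 for dehydration 1 h over ABA 1 h.

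Metabolic genes gave smaller groups. In the proline and raffinose list 5 of 9 were higher, 2 of them from under 1 CPM in the control: P5CS1 (AT2G39800), the main stress enzyme of proline synthesis, stood at 27.9, 309, 1370, 65.7 and 476 CPM, and GolS2 (AT1G56600) at 0.842, 29.4, 61.3, 11.3 and 115 CPM. Both had their lowest treated value after dehydration for 1 h. PDH2 (AT5G38710), which breaks proline down, was 5.19-fold higher, from 2.65 CPM in the control to 13.8 CPM after 1 h. The more abundant PRODH1 (AT3G30775) of the same step was at 151.5 and 169 CPM, a log2 ratio of 0.16. The beta-amylase CT-BMY (AT4G17090), which releases maltose from starch in the chloroplast, stood at 81.6, 141, 64.8, 538 and 577 CPM. Of 8 nitrate genes 1 was higher, the nitrate reductase NIA1 (AT1G77760) at 610, 479, 406, 1365 and 791 CPM, and 2 were lower, the regulators LBD37 and LBD38 with log2 ratios of -1.48 and -1.11. The second reductase gene NIA2 had a log2 ratio of -0.02 and the transporter gene NRT1.1 one of -0.86. Of 11 sugar-repressed and BT genes 4 were lower and 1 was higher. Lower were BT2 (AT3G48360) at 354, 13.9, 29.2, 61.9 and 86.2 CPM and BT5 (AT4G37610) at 98.1, 3.70, 6.43, 23.0 and 28.5 CPM, both lower still after ABA. In the flavonoid list PAP1 (AT1G56650), an activator of anthocyanin genes, was 11.8-fold higher. It was under 1 CPM in the control and measured only through treated columns. MYB111 and F3H were 3.67-fold and 3.09-fold higher. The late enzymes LDOX and DFR were 2.34-fold and 2.13-fold lower, from 1.90 and 1.56 CPM in the control. DFR was lower by less than 2-fold with total-count scaling. ERD7 (AT2G17840), named for early response to dehydration, was among the largest gains in CPM and stood at 34.7, 151, 354, 575 and 649 CPM.

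Some of the lowest ratios belonged to abundant genes that were low in all treated columns. AT2G20670, described as a protein of unknown function, stood at 425, 31.3, 70.4, 18.9 and 13.5 CPM, a log2 ratio of -4.49 (-4.54 to -4.44). AT1G23390, which encodes a Kelch-repeat F-box protein, stood at 496, 30.6, 50.5, 25.4 and 54.6 CPM. Of the flowering repressors, RAV2 (AT1G68840) stood at 226, 16.9, 13.5, 13.1 and 12.2 CPM. TEM1 (AT1G25560) stood at 293, 96.2, 120, 17.1 and 42.3 CPM. For RAV2 the 4 treated columns lay close together, and for TEM1 the dehydration columns lay below the ABA columns. The largest falls in CPM were of another kind, small ratios in very abundant genes: HSC70-1 (AT5G02500) was 2.37-fold lower and the light-harvesting gene LHB1B2 (AT2G34420) 1.93-fold lower. The 9 reference genes lay between -0.26 (UBC21) and 0.26 (SAND), with a median of -0.11. Of 38 histone genes 0 were at least 2-fold apart, and the 310 genes matched by name to ribosomal proteins, a few of them perhaps not ribosomal, had a median of -0.37 with 2 genes lower.

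The genes that were higher or lower were also compared with all measured genes in promoter sequence and gene structure. The 11 motifs were searched on both strands in the 500 bases before the annotated start. DRE/CRT was searched as ACCGAC and as GCCGAC. ABRE was searched as ACGTGNC and the G-box as CACGTG. For the CAMTA element the letters were CGCGTT and also CGCGTG, and for the GCC box GCCGCC. The W-box was taken as TTGACC and as TTGACT, and the evening element as AAATATCT. The heat shock element was written GAANNTTC or else TTCNNGAA. The auxin response element was TGTCTC, the site II element was TGGGCC and also TGGGCT, and the PBE box was CACATG. The letters of ABRE and G-box can share bases. DRE/CRT was present in 14.0% of all measured promoters, 18.0% of those of higher genes and 25.9% of those at least 4-fold higher. The figures for ABRE were 13.7%, 19.0% and 27.2%, and for the G-box 10.4%, 16.4% and 25.4%. The CAMTA element went from 8.74% to 13.6% and 14.2%, the evening element from 8.91% to 13.5% and 17.5%, and the W-box from 45.0% to 54.3% and 54.6%. In the promoters of lower genes the shares of DRE/CRT, ABRE and G-box were 13.2%, 13.7% and 10.4%, near those of all genes. The site II element, common in promoters of ribosomal and other housekeeping genes, was rarer in both sets, at 19.9% of higher and 18.7% of lower genes against 29.5% of all. The GCC box and the auxin response element were at similar shares in higher genes and all genes, 4.13% against 4.39% and 21.4% against 21.2%. Several matches went with a larger share for some motifs: 49 of 260 genes with at least 2 DRE/CRT matches were higher (18.8%), as were 29 of 130 with at least 2 evening elements (22.3%). Of 3484 with at least 2 site II elements 134 were (3.85%). For the G-box the share was 12.3% with 1 match and 11.9% with more. These shares describe letters in a window and no binding was measured.

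**Figure D4:**
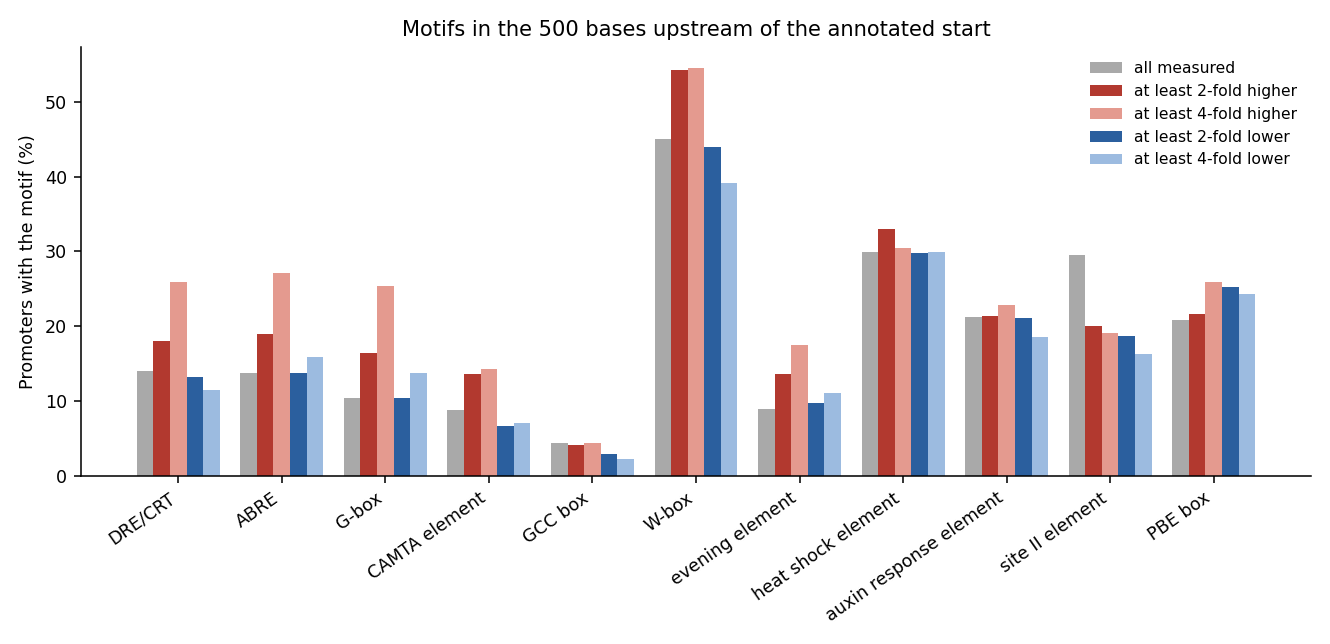
Share of promoters (y axis, percent) that hold each of 11 motifs in the 500 bases before the annotated start, for all measured genes (grey), genes at least 2-fold and 4-fold higher (red, light red) and at least 2-fold and 4-fold lower (blue, light blue). DRE/CRT, ABRE and G-box bars are tallest in the genes at least 4-fold higher, at 25.9%, 27.2% and 25.4%, and the site II bars are lower in all 4 sets than in all measured genes.

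Intron-poor genes had a larger share on both sides than among all measured genes. Genes with 1 exon made up 15.1% of the measured genes, 25.2% of those higher and 38.5% of those lower. The median number of exons was 5 over all measured genes, 3 in the higher and 2 in the lower set. Read the other way, 12.9% of the 2845 genes with 1 exon were higher and 14.3% lower, while of the 3782 genes with 10 or more exons 4.49% were higher and 0.582% lower. The median log2 ratio was -0.08 in genes with 1 exon and 0.18 in genes with 10 or more. The median transcript length was 1867 bases in higher genes and 1384 in lower genes, against 1764 in all.

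The study's title concerns 3′ ends of mRNAs, which gene counts do not resolve, but weakly covered genes can be set against the position of their neighbours. These classes were chosen after the values were seen. Of 3363 genes under the mean of 1 CPM that gave a ratio, 24.9% were higher and 12.0% lower, with a median of 0.21. Those that start within 1000 bp downstream of a measured gene on the same strand were 322 of 734 higher (43.9%) and 38 lower, with a median of 0.76. The other positions had smaller shares: 26.7% of 516 genes upstream on the same strand, 24.02% of 458 downstream on the other strand and 18.98% of 274 upstream on the other strand. Among downstream same-strand genes the share was 49.4% of 334 at a gap of up to 250 bp, 41.5% of 183 beyond that up to 500 bp and 37.3% of 217 beyond that up to 1000 bp. The median over the 734 genes was 0.11 for ABA 1 h and 1.17 for dehydration 3 h against the same control column. These are few reads, a median of 18 in the control and 40 after 1 h, but with at least 20 reads in both columns together the share was 37.99% of 566, against 22.1% of all 2843 such genes. Measured genes in the same downstream position were higher in 6.44% of 3869 cases, beside 7.73% over all measured genes.

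**Figure D5:**
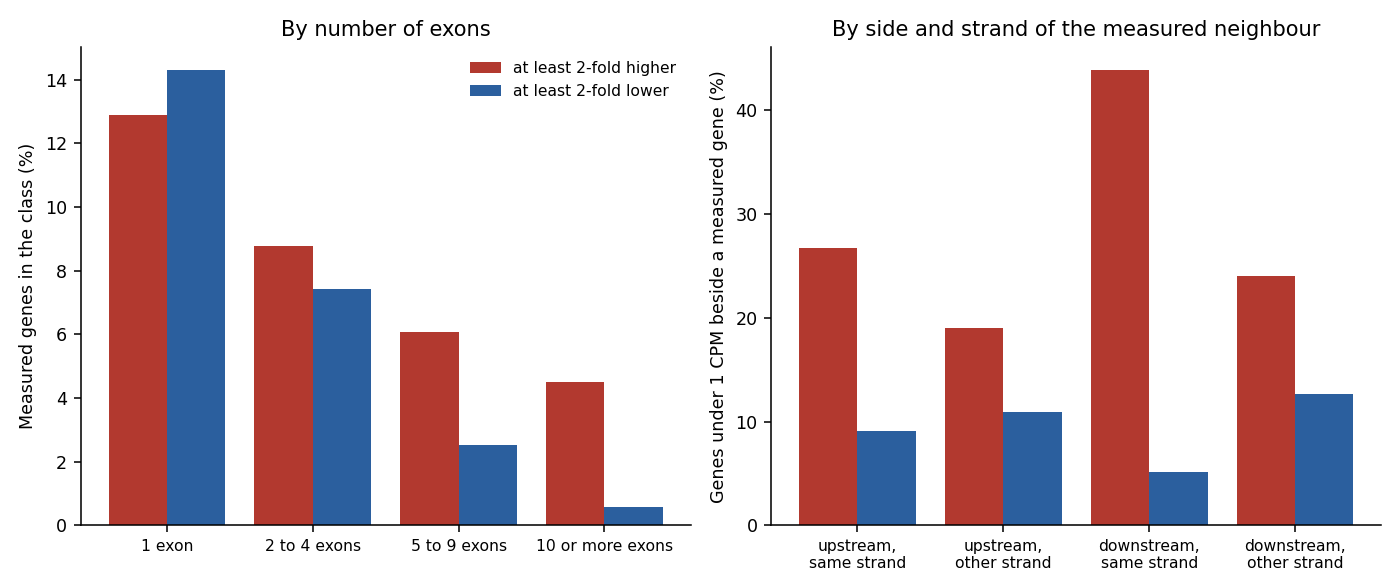
Left, share (percent) of measured genes with 1, 2 to 4, 5 to 9 and 10 or more exons that are higher (red) or lower (blue) after 1 h of dehydration. Right, the same shares for genes under 1 CPM within 1000 bp of a measured gene, by side and strand, where the downstream same-strand bar reaches 43.9% and the other 3 positions lie between 18.98% and 26.7%.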

How the data were processed

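Per the labels' protocols, TruSeq stranded mRNA libraries of whole seedlings were sequenced as 100-cycle single reads. The authors deposited read counts per gene and, in a second table, FPKM, each with 1 combined column per condition. The submitters' processing notes name TopHat2 2.0.8, Cufflinks 2.1.1, Cuffdiff, DESeq2 and the TAIR10 build. The sources used here do not give the counter, its strand setting or how replicates were combined. Totals were 180444972 reads in the control and 178067955 after dehydration for 1 h.

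From the deposited counts, columns were scaled by TMM factors on the genes that edgeR's filterByExpr keeps (edgeR 4.0.16, R 4.3.3). Ratios were taken for genes with a mean of at least 1 CPM over the 5 columns, with counts under 3 set to 3, a floor of 0.017 CPM in the control. Intervals are exact Clopper-Pearson 95% intervals for counting error (SciPy 1.17.1). The ratio script was tested on simulated data. The planned tests need replicate columns and were not made. RD29A's count after ABA for 3 h, 0 reads beside an FPKM of 3960, was treated as missing. Deposited FPKM values served as a check.

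Genes named are the 15 highest and 15 lowest ratios among genes that reached 10 CPM in 1 of the 2 columns and had 4 or more reads in each and a number in both FPKM columns, the 10 largest gains and falls in CPM, up to 6 members of each list, and 11 stress genes. Not every eligible gene is printed. Marker genes less than 2-fold apart are named to account for their list. The members, the 62 lists and the motifs were chosen with earlier results of these data known, and some lists were cleaned by annotation when values were already visible. Listed symbols were checked against deposited and RefSeq names: 435 matched, 15 had no name to compare and 1 was dropped. Structure, promoters and neighbours came from RefSeq's TAIR10.1, where 22432 of the 22526 genes were found by locus code. There 1032 measured genes overlap another on the same strand. Alternatives were other scalings, filters, FPKM, a 4-fold limit and, chosen after seeing the data, TMM on all genes and promoters of 250 bases.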

Additional observations from a re-analysis of the deposited data

How the results depend on the processing

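Against 1458 higher and 1060 lower genes, the higher count was 2295 with no filter on low counts and 955 on the log2(FPKM + 1) scale, where the added 1 shrinks the ratios of low genes. The other counts stayed within 1.5 times of these. TMM on all genes, the setting first run and replaced after seeing the data, gave 1414 and 1103. Total-count scaling moved the median of all genes by 0.118 (log2), from -0.008 to 0.11, and the share of higher among genes 2-fold apart from 57.9% to 67.1%. Of 256 named genes at least 2-fold apart, 0 changed sign under 4 other scalings and 2 FPKM scales, but 7 came under 2-fold with total counts and 32 on log2(FPKM + 1). With promoters of 250 bases, also chosen after seeing the data, DRE/CRT was in 8.04% of all measured and 12.2% of higher genes. No paired analysis was possible because replicates were combined into 1 column per condition, and for the same reason no replicate could be left out. Depth limits genes with few control reads, such as CBF3 and DDF2.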

Other observations

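Genes of the low-oxygen response were looked at after LBD41 and AT3G10040 (HRA1) had been seen among the lowest ratios. The list of 13 genes was thus chosen after values were seen, and 12 of them were measured. LBD41 (AT3G02550) stood at 40.4 CPM in the control, 1.69 after ABA for 1 h, 2.68 after ABA for 3 h, 1.95 after dehydration for 1 h and 2.4 after dehydration for 3 h. HRA1 stood at 16.5, 1.14, 1.09, 1.01 and 1.39 CPM in the same order. Both were below the control in all 4 treated columns, and the cause was not tested. The fermentation gene PDC1 (AT4G33070) went the other way, at 4.81, 24.5, 10.5, 42.9 and 14.6 CPM, and SRO5 (AT5G62520) was 6.02-fold higher. In all 2 of the 12 measured genes were at least 2-fold higher and 3 were at least 2-fold lower, with a median log2 ratio of 0.23, so the list as a whole had no common direction.

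Of 49 gene families named by the deposited descriptions with at least 30 measured members, 6 had higher but 0 lower members and 4 had lower but 0 higher members. The 3 families given here were chosen from these 10 after their values were seen. At least 2-fold higher were 10 of 36 ankyrin repeat genes (27.8%) and 9 of 39 MATE efflux genes (23.1%), beside 7.73% of all measured genes. At least 2-fold lower were 6 of 30 genes of the UPF0497 membrane protein family (20.0%), beside 5.62% of all.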
